A study of Mus musculus with 9 samples.

Results

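The 42 genes described here encode collagen chains, the subunits that wind in threes into the triple helices of the extracellular matrix. They are the protein-coding rows of the deposited expression table whose symbol has the form Col, a type number, a and a chain number, apart from Col2a1 and Col10a1, which belong to the cartilage genes. The pattern found 44 rows among 54532, all of them protein coding, and 42 remained after those 2 were left out. The aortas came from mice that lack apolipoprotein E (Apoe-/-) and develop atherosclerosis. The animals were 6 to 8 weeks old and followed a regimen of 24 weeks: chow diet (CD), high fat diet (HFD), or high fat diet with ammonium iron(III) citrate injected into the peritoneum (HFD_IO). Each group has 3 aortas. Every group carries the Apoe deletion, there is no group with an intact gene, and the labels give no iron dose, no sex and no sham injection for CD or HFD, so the iron salt and the injections cannot be told apart. The labels name separate aortas but not whether any was pooled, and p-values measure the spread between these libraries.

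Collagen chains fall into families by how their helices assemble. Fibrillar collagens (types I, III, V, XI, XXIV and XXVII) build the banded fibrils that carry load, basement membrane collagen (type IV) forms the sheet under endothelium and around each smooth muscle cell, and the network-forming types VI and VIII make beaded filaments and short-chain lattices. Fibril-associated collagens (types IX, XII, XIV, XVI and XX among others) sit on fibril surfaces, multiplexins (XV and XVIII) anchor basement membranes to the matrix, and transmembrane collagens are held at the cell surface. In the artery, types I and III make up most of the collagen of the wall, and the fibrous cap of a plaque is built largely from them. By these families the 42 members comprise 10 fibrillar, 6 basement membrane, 8 network (6 of type VI and 2 of type VIII) and 18 other chains, the last made of 9 fibril-associated, 4 transmembrane, 2 multiplexin, 1 anchoring fibril and 2 remaining chains.

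The unit of every level is FPKM, which divides the fragments of a gene by its length and by a size for the library. Genes can thus be compared with each other. In the deposited values that size is proportional to median-of-ratios size factors, which come from the typical gene, and not to the read total. The libraries held 16660963 to 18308450 reads each. Of the 42 chains, 29 reached 1 FPKM in at least 3 of the 9 libraries and were tested with limma beside all other genes passing the same filter, 13883 in all. The other 13 (Col6a4, Col6a5, Col7a1, Col9a1, Col11a1, Col13a1, Col17a1, Col19a1, Col22a1, Col24a1, Col25a1, Col26a1 and Col28a1) did not pass. Changes are differences of log2(FPKM + 1), given with the standard error (SE), and a chain is said to have risen or fallen where the Benjamini-Hochberg adjusted p over all tested genes was under 0.05. For chains of low level, adding 1 makes a change look smaller than it was. One library of each outer group stood apart in collagens: CD_1 was the lowest of its group in 27 of the 29 tested chains, and HFD_IO_3 was the highest of its group in 27. Fits without CD_1 leave CD_2 and CD_3, which were more alike over all genes than any other pair within a group. Markers of smooth muscle and adventitial fibroblasts, the cells expected of an aorta, were above 0 in every library. In whole aortas, fewer cells of a type and less RNA per cell cannot be told apart.

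Types I, III, XVIII and VI led in every group. Col1a1 had the highest mean level throughout: 296 ± 101 FPKM in CD, against 222 ± 13.6 in HFD, and 230.0 ± 54.8 in HFD_IO (SD, n = 3). Col1a2, its partner in type I collagen, came second in CD (208 ± 49.9), and Col3a1, the only chain of type III collagen, came second in HFD (209 ± 8.77) and HFD_IO (179 ± 16.5). In HFD, Col18a1 at 201 ± 7.27 FPKM lay within the spread of Col3a1, so those neighbours did not differ beyond their SD. Col1a2 and Col3a1 in CD (196 ± 40.8) did not either. The 16 chains with a mean of at least 10 FPKM in a group were Col1a1, Col1a2, Col3a1, Col5a1, Col5a2, Col4a1, Col4a2, Col4a5, Col4a6, Col6a1, Col6a2, Col6a3, Col8a1, Col14a1, Col15a1 and Col18a1.

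**Figure D1:**
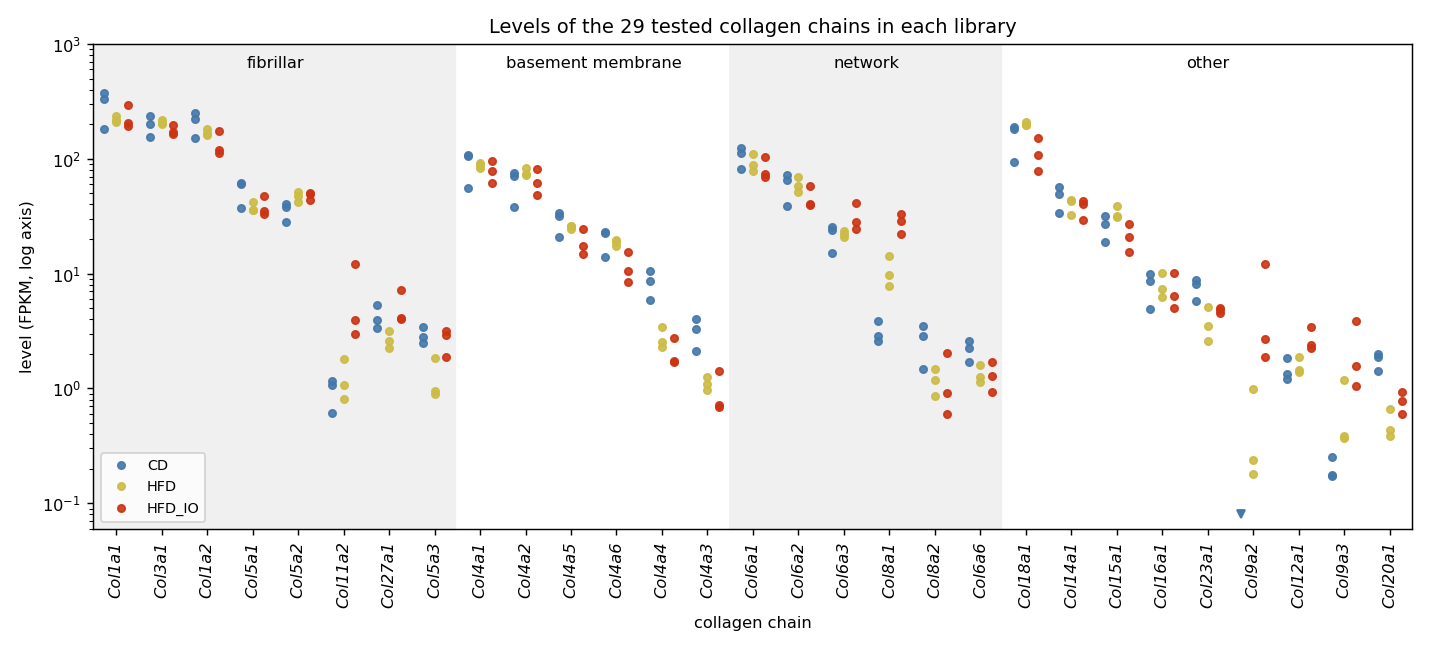
Level of each of the 29 tested collagen chains (FPKM, log axis) in each of the 9 libraries, coloured by group and ordered by class and by the highest group mean. Triangles mark chains listed at 0, which is Col9a2 in all 3 CD libraries; the 3 groups of Col8a1 (at most 3.89 FPKM in CD, 7.75 to 14.4 in HFD, at least 22.2 in HFD_IO) do not overlap.

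All chains together took 0.914%, 1.36% and 1.5% of the reads in the CD libraries, 1.11%, 1.05% and 1.05% in HFD, and 0.895%, 0.841% and 1.21% in HFD_IO. The groups overlapped, so the amount of collagen transcript did not separate them. For CD the overlap rested on CD_1 (0.914%): the other CD libraries (1.36% and 1.5%) lay above every HFD and HFD_IO library. The make-up of the collagen level differed. Fibrillar chains held 54.1% to 56.0% of the summed collagen level in CD, 49.1% to 51.3% in HFD and 52.3% to 56.1% in HFD_IO, so HFD lay below both other groups. Multiplexin chains went the other way, at 11.2% to 13.1% in CD, 16.7% to 17.3% in HFD and 9.14% to 11.8% in HFD_IO. The type VIII share was 0.383% to 0.434% in CD, 0.621% to 1.14% in HFD and 2.24% to 2.68% in HFD_IO, with no overlap among the 3 groups. These shares are descriptions and were not tested.

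**Figure D2:**
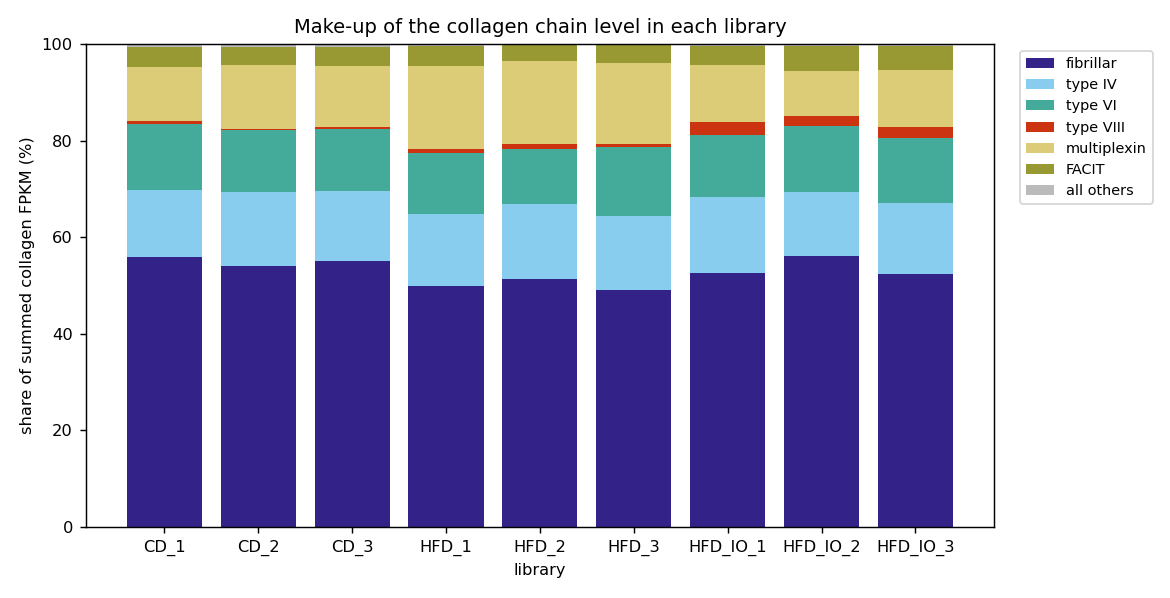
Share of the summed FPKM of all 42 chains held by each family, 1 bar per library (FACIT stands for the fibril-associated chains). The multiplexin segment is largest in the 3 HFD bars (16.7% to 17.3%), and the type VIII segment widens from CD to HFD to HFD_IO.

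The high fat diet was compared with chow to ask how the diet relates to the aortic transcriptome in these mice. In HFD, Col8a1 rose, and Col4a4, Col4a3, Col20a1, Col23a1 and Col5a3 fell, while Col1a1, Col1a2 and Col3a1 did not pass the test. That is 1 chain of 29 higher, against 21.8% of all tested genes, and 5 lower, against 17.6%. The libraries of the groups did not overlap for 5 chains higher and 7 lower in HFD, beside 28.2% and 22.5% of all tested genes. The median change of the 29 chains was -0.06, beside 0.06 for all tested genes. Collagen genes are long: 14 of the 29 lie in the longest of 5 length classes of protein-coding genes, whose median change was -0.21 here. The median fell with length over the 5 classes, from 0.41 in the shortest. With the length trend removed, the median of the chains was 0.09, beside 0.04 for all tested genes. Leaving out CD_1 gave 1 higher and 9 lower, with Col1a1 (-0.66, adjusted p = 0.023), Col5a1, Col6a6 and Col8a2 added. Over all 13883 genes, 3316 were then higher and 2844 lower, beside 3030 and 2440 with CD_1. Rescaling each library to a fixed sum (TPM) moved the median of all genes to -0.30 and gave 1 higher and 11 lower. Of all genes, 1018 were higher and 4948 lower in TPM. A skeletal muscle marker covariate left 1 chain higher and 0 lower (3 lower at an unadjusted p under 0.05), beside 789 and 502 of all genes.

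Adding iron to the high fat diet, the comparison named in the title of the series, went with higher Col8a1, Col9a2, Col11a2, Col5a3, Col27a1 and Col12a1 and lower Col4a6 and Col15a1. The 6 higher chains of 29 compare with 14.1% of all tested genes, and the 2 lower chains with 14.5%. Without overlap between the groups there were 7 higher and 5 lower, beside 24.1% and 24.4%. The median change was -0.04 for the chains, -0.00 for all tested genes and 0.19 for the longest length class. The shortest class had a median of -0.28. With the length trend removed, the median of the chains was -0.15, beside 0.01 for all tested genes. Of these 8 calls, Col8a1 alone held when any of the 9 libraries was left out: without HFD_3 it was the only chain called, and without HFD_IO_3 the counts were 3 higher and 4 lower. With no filter on low values, or with an adipocyte or skeletal muscle covariate, Col8a1 was again the only chain called. Over all 13883 genes, 1956 higher and 2013 lower became 1182 and 1093 without HFD_3 and 1470 and 1430 without HFD_IO_3. They became 638 and 545 with the adipocyte and 355 and 330 with the skeletal muscle covariate. With no filter they were 1532 and 1384 of 30663. TPM, with a median of 0.14 over all genes, gave 7 higher and 0 lower (2 lower at an unadjusted p under 0.05). Of all genes, 2373 were higher and 1160 lower in TPM.

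HFD_IO against CD combines both changes and shares its libraries with the other comparisons. Col8a1, Col9a2, Col11a2, Col9a3, Col12a1 and Col5a2 rose, and Col4a4, Col4a3, Col4a6 and Col20a1 fell, which is 6 higher and 4 lower of 29 beside 17.5% and 15% of all tested genes. HFD_IO and CD did not overlap for 6 chains higher and 5 lower, beside 24.3% and 22.7%. The median change of the chains was -0.29, against -0.01 for all tested genes and -0.05 for the longest class. Leaving out CD_1 gave 4 higher and 13 lower, and leaving out HFD_IO_3 gave 4 and 7. Over all 13883 genes, 2573 were higher and 2463 lower without CD_1, and 2086 and 1765 without HFD_IO_3. TPM, with a median of -0.23 over all genes, gave 4 higher and 11 lower, beside 1528 and 3800 of all genes. The balance between higher and lower calls, of chains and of all genes, thus depends on the scaling. Over the 3 comparisons, 14 of the 29 tested chains passed in at least 1 and 15 in none.

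**Figure D3:**
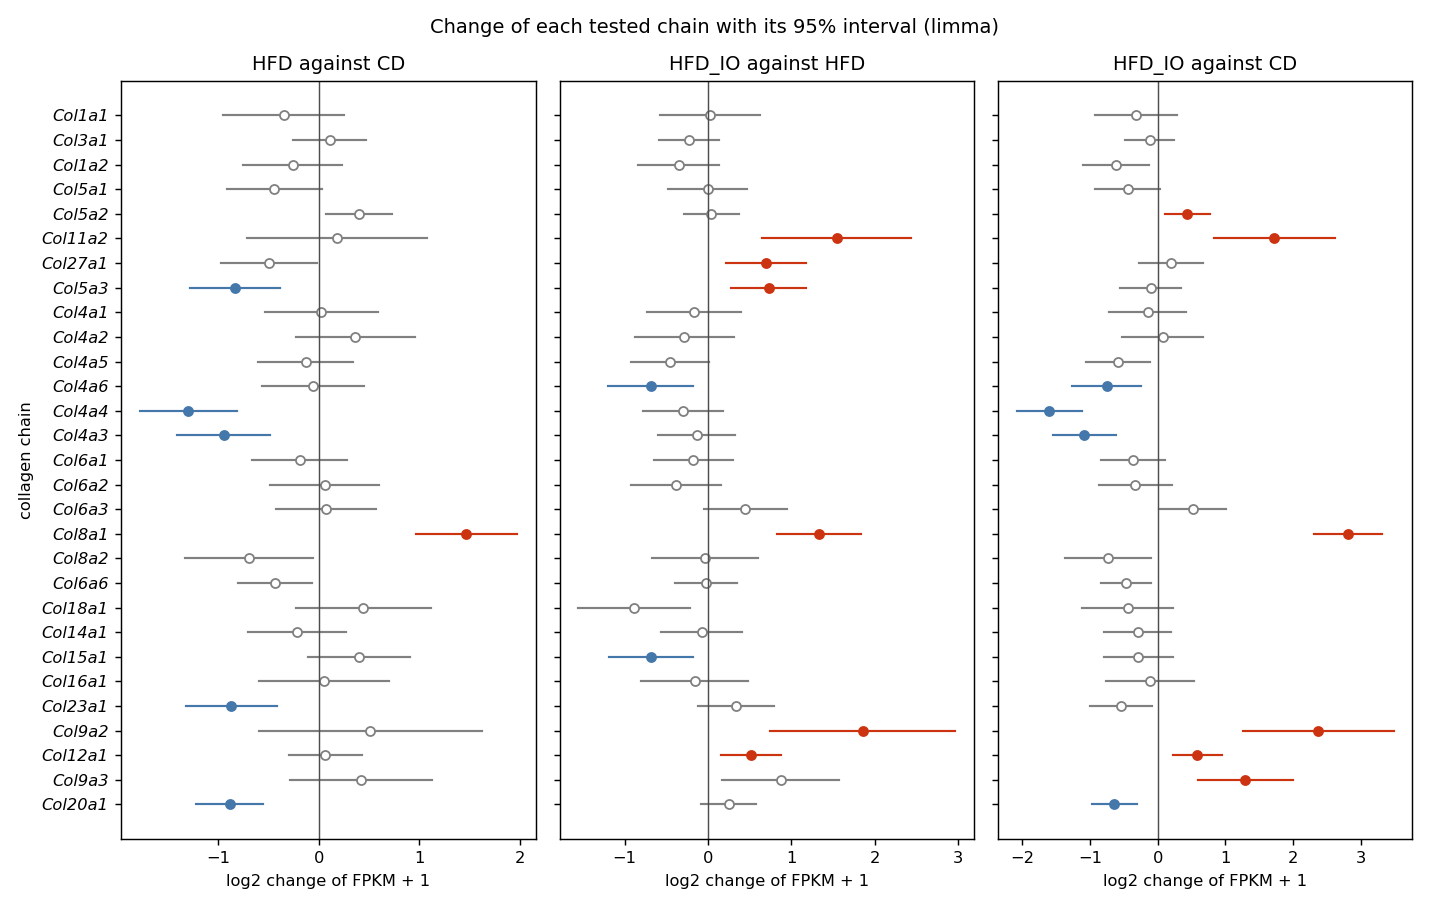
Change of each tested chain on the log2(FPKM + 1) scale with its 95% interval from limma, 1 panel per comparison, chains grouped by class. Filled points passed an adjusted p of 0.05 (red higher, blue lower); Col8a1 is to the right of 0 in all 3 panels, and Col4a3 and Col4a4 are to the left in the panels against CD.

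Type VIII collagen, a short-chain collagen made by smooth muscle and endothelial cells and known to increase in injured arteries, has 2 chains. They are shown with the bases before their start sites because Col8a1 passed the test in every comparison and Col8a2 in none. Col8a1 is on the minus strand of chromosome 16 (57624258 to 57754737, GRCm38) and Col8a2 on the plus strand of chromosome 4 (126286793 to 126314330). The printed bases, from RefSeq on GRCm38.p6, read 5′ to 3′ towards the gene and stop before the first annotated exon; they are chr16:57754738-57754987 on the minus strand and chr4:126286544-126286792 on the plus strand. Capitals mark any of 3 motifs on either strand, and copies can overlap: the TATAAA motif, the CCAAT motif and the GGGCGG motif.
Col8a1: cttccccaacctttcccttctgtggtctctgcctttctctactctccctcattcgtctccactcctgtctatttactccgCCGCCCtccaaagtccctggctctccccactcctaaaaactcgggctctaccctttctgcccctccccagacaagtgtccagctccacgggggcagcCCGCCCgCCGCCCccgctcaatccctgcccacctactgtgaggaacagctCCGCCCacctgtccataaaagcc
Col8a2: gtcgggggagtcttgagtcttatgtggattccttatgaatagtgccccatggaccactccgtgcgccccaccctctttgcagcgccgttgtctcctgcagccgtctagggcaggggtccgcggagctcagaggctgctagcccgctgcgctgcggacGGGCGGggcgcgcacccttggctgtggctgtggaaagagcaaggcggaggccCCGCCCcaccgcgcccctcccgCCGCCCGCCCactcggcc
Both stretches hold 4 copies of GGGCGG and no copy of the others. Among all 32851 promoter windows of 300 bases, 35.7% hold GGGCGG, 37.4% CCAAT and 13.6% TATAAA. Of the 42 members, 34 have a window, and 37 collagen windows in all hold these motifs in 23, 13 and 4 cases. Col1a1, Col5a2, Col4a3, Col9a3, Col12a1, Col14a1, Col22a1 and Col26a1 are not in the table. A match is only a match of letters.

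Col8a1 stood at 2.86, 2.61 and 3.89 FPKM in CD, 9.75, 14.4 and 7.75 in HFD, and 28.6, 22.2 and 32.9 in HFD_IO. Every HFD library was above every CD library, and every HFD_IO library above every HFD library. The change was 1.47 (SE 0.22, adjusted p = 0.00179) in HFD against CD, 1.33 (SE 0.22, adjusted p = 0.00402) in HFD_IO against HFD and 2.81 (SE 0.22, adjusted p = 4.56e-05) in HFD_IO against CD. Leaving out any 1 library kept all 3 calls. With the mean of chondrocyte markers as a covariate they were not kept (1.04, 0.86 and 1.91, with adjusted p of 0.0725, 0.142 and 0.104). Over all 13883 genes that covariate left 702 higher and 376 lower, 468 and 446, and 354 and 93 in the same order. Without it these were 3030 and 2440, 1956 and 2013, and 2427 and 2089. A smooth muscle marker covariate, under which limma called no gene in HFD_IO against HFD, ended the call there (1.80, adjusted p = 0.294). The summed level of the chondrocyte markers was 34.5 to 51.0 FPKM in CD, 54.4 to 134 in HFD and 204 to 663 in HFD_IO, so that list separates the groups, and its part in the change of Col8a1 cannot be told apart from that of the group. Col8a2 was at 1.48, 3.50 and 2.85 FPKM in CD, 1.49, 0.853 and 1.19 in HFD, and 0.602, 0.907 and 2.04 in HFD_IO. Its groups overlapped, and its changes of -0.70, -0.04 and -0.74 had adjusted p of 0.0773, 0.928 and 0.0744. Without CD_1 the changes against CD were -0.94 (adjusted p = 0.0232) and -0.98 (adjusted p = 0.0235), and without HFD_IO_3 they were -0.70 (adjusted p = 0.0471) and -1.0 (adjusted p = 0.0231). The ratio of Col8a1 to Col8a2 was 0.745 to 1.94 in CD, 6.50 to 16.9 in HFD and 16.1 to 47.4 in HFD_IO.

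The 6 type IV chains lie as 3 pairs, each transcribed in opposite directions from neighbouring start sites. Col4a1 and Col4a2, the chains of the common basement membrane, overlap by 22 bases on chromosome 8. Col4a4 and Col4a3, which form a trimer with Col4a5 in the kidney filter and are mutated in Alport syndrome, are 71 bases apart on chromosome 1. Col4a6 and Col4a5, whose chains also occur together in basement membranes of smooth muscle, are 1308 bases apart on the X chromosome. The bases before both genes of the X chromosome pair are shown because Col4a6 passed the test and Col4a5 did not. A call for 1 chain alone does not show that the changes differ. In HFD_IO against CD they were -0.75 for Col4a6 and -0.59 for Col4a5. The printed bases are chrX:141474077-141474326 on the minus strand and chrX:141475169-141475384 on the plus strand, from RefSeq on GRCm38.p6, with capitals as above.
Col4a6: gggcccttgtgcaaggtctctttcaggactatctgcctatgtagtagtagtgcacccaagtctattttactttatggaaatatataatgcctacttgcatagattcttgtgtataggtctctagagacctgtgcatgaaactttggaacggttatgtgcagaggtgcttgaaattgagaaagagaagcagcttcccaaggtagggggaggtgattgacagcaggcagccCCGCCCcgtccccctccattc
Col4a5: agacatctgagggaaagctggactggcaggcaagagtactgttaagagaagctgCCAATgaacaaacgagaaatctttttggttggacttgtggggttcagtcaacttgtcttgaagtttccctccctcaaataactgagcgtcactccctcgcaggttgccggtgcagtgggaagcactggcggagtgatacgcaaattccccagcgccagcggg
The printed stretch of Col4a6 holds 1 copy of GGGCGG on the other strand, and that of Col4a5 holds 1 CCAAT on its own strand.

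In both comparisons with CD, the Col4a4 and Col4a3 pair fell, and no other type IV chain fell in HFD. Col4a4 (chromosome 1, 82448423 to 82586849) was at 5.85, 8.63 and 10.6 FPKM in CD, 3.41, 2.30 and 2.52 in HFD, and 1.71, 1.73 and 2.74 in HFD_IO. All libraries on the high fat diet, with or without iron, were below all CD libraries, and HFD and HFD_IO overlapped. Its change was -1.30 (SE 0.21, adjusted p = 0.00242) in HFD against CD, -1.60 (SE 0.21, adjusted p = 0.000587) in HFD_IO against CD and -0.30 (adjusted p = 0.319) in HFD_IO against HFD. Col4a3 (chromosome 1, 82586921 to 82722059) was at 2.10, 3.32 and 3.99 FPKM in CD, 1.10, 0.960 and 1.27 in HFD, and 0.689, 0.714 and 1.43 in HFD_IO. Its libraries were arranged as those of Col4a4, with changes of -0.95 (SE 0.20, adjusted p = 0.00742), -1.08 (adjusted p = 0.00373) and -0.14 (adjusted p = 0.649) in the same order. None of these 4 calls was lost when 1 library was left out. In HFD against CD, a skeletal muscle marker covariate ended both calls (adjusted p of Col4a4 0.0579); those markers summed to 109.7 and 69.0 FPKM in HFD_2 and HFD_3 and to 4.29 to 16.2 in the other libraries, and their part was not tested further. An adipocyte covariate ended the call of Col4a3 (adjusted p = 0.0573); those markers summed to 3177 FPKM in HFD_3 and to at most 1909 elsewhere. In HFD_IO against CD, the chondrocyte and the smooth muscle covariate each ended both calls. These covariates also cut the calls over all 13883 genes. In HFD against CD, 3030 higher and 2440 lower became 789 and 502 with the skeletal muscle and 1311 and 985 with the adipocyte covariate. In HFD_IO against CD, 2427 and 2089 became 354 and 93 with the chondrocyte and 161 and 26 with the smooth muscle covariate.

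Col4a1, Col4a2 and Col4a5 did not pass in any comparison. Col4a1 was at 56.2, 106 and 107 FPKM in CD, 83.6, 87.7 and 91.5 in HFD, and 78.0, 62.0 and 96.4 in HFD_IO. Its changes were 0.02, -0.17 and -0.15, with 95% intervals of -0.54 to 0.59, -0.74 to 0.39 and -0.71 to 0.42. Col4a2 had changes of 0.36, -0.29 and 0.08, and Col4a5 of -0.13, -0.46 and -0.59 (adjusted p of 0.641, 0.132 and 0.0587); without CD_1, Col4a5 passed in HFD_IO against CD (-0.80, adjusted p = 0.0117), and without HFD_IO_3 it passed there (-0.78, adjusted p = 0.0203) and in HFD_IO against HFD (-0.65, adjusted p = 0.04998). Col4a6 was at 14, 22.5 and 22.9 FPKM in CD, 18.7, 17.5 and 19.5 in HFD, and 10.4, 8.48 and 15.4 in HFD_IO. Its HFD_IO libraries all lay below HFD but overlapped CD through CD_1. It fell by 0.69 in HFD_IO against HFD (SE 0.23, adjusted p = 0.0481) and by 0.75 in HFD_IO against CD (SE 0.23, adjusted p = 0.0312). Both calls are fragile. The first was lost without CD_2, CD_3, any HFD library, HFD_IO_1 or HFD_IO_2 (adjusted p of 0.0573 to 0.150), and the second without CD_2, CD_3, HFD_IO_1 or HFD_IO_2 (0.0834 to 0.115).

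Ratios between chains within a library do not depend on its scaling and were described without a test. Col4a1 exceeded Col4a4 by 9.61, 12.2 and 10.1 times in CD, by 24.5, 38.1 and 36.3 times in HFD and by 45.7, 35.8 and 35.1 times in HFD_IO. The ratio of Col4a1 to Col4a2 was 1.47, 1.49 and 1.41 in CD, 1.14, 1.21 and 1.11 in HFD, and 1.27, 1.28 and 1.19 in HFD_IO, so CD stood above the rest. Col4a5 over Col4a6 was 1.48, 1.41 and 1.47 in CD, 1.40, 1.5 and 1.26 in HFD, and 1.65, 1.74 and 1.59 in HFD_IO, where HFD_IO stood above both other groups.

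**Figure D4:**
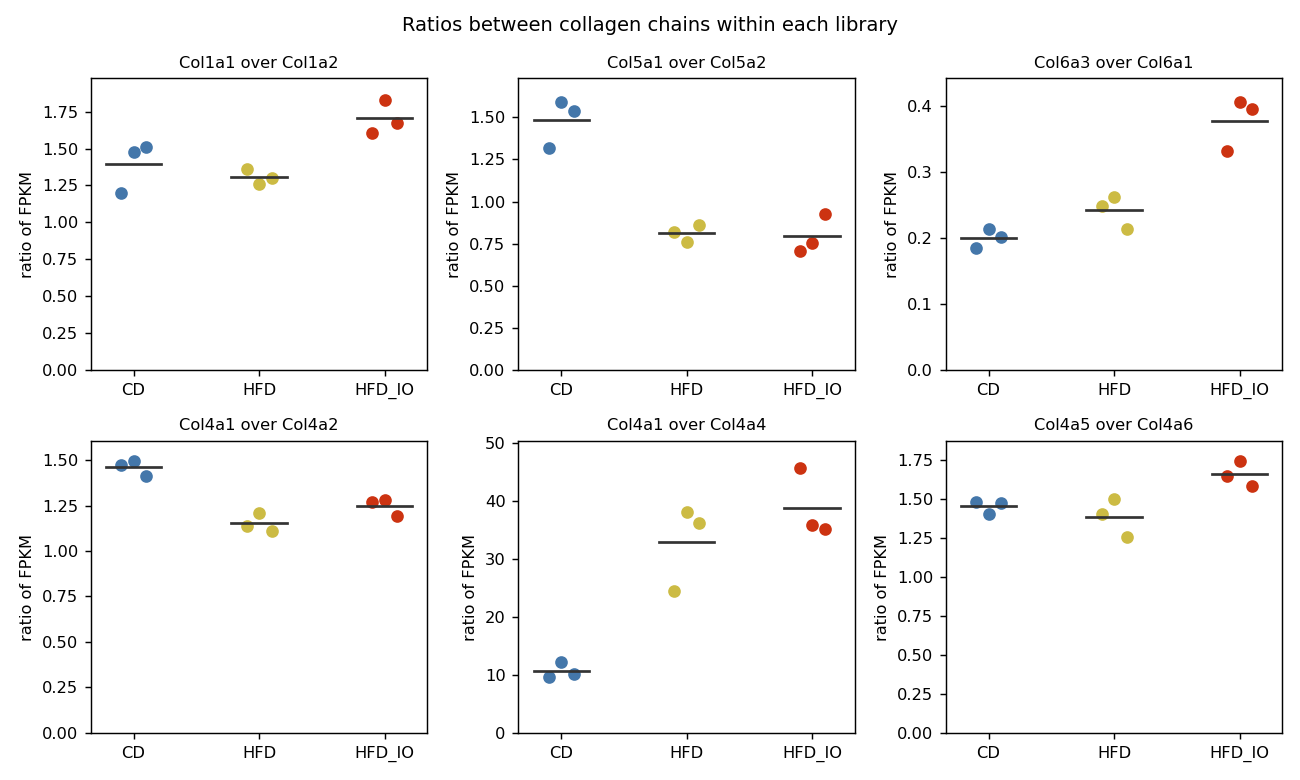
Ratio of the FPKM of a pair of chains in each library, with the group mean as a line, for 6 pairs. CD stands apart for Col5a1 over Col5a2, Col4a1 over Col4a2 and Col4a1 over Col4a4, and HFD_IO for Col1a1 over Col1a2, Col6a3 over Col6a1 and Col4a5 over Col4a6.

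Among the major fibrillar chains no group difference passed the test. Col1a1 (chromosome 11, 94936224 to 94953042) was at 182, 331 and 374 FPKM in CD, 219, 210.1 and 237 in HFD, and 191, 206 and 293 in HFD_IO. The groups overlapped, with CD_1 lowest of all 9. Its changes were -0.35 (95% interval -0.95 to 0.25), 0.03 (-0.58 to 0.63) and -0.32 (-0.92 to 0.28), with adjusted p of 0.324, 0.951 and 0.394. Without CD_1 they were -0.66 (adjusted p = 0.023) in HFD and -0.64 (adjusted p = 0.0315) in HFD_IO against CD, so 1 library decides whether Col1a1 is called lower. Col1a2 was at 152, 224 and 248 FPKM in CD, 161, 167 and 182 in HFD, and 119, 112 and 175 in HFD_IO. Its change of -0.61 in HFD_IO against CD had an adjusted p of 0.0573, and 0.0127 without CD_1 and 0.0206 without HFD_IO_3. Col3a1, at 154, 201 and 235 FPKM in CD, 202, 218 and 205 in HFD, and 166, 173 and 197 in HFD_IO, had changes of 0.11, -0.23 and -0.12 with 95% intervals of -0.25 to 0.47, -0.59 to 0.14 and -0.48 to 0.24. The ratio of Col1a1 to Col1a2 was 1.2, 1.48 and 1.51 in CD, 1.36, 1.26 and 1.30 in HFD, and 1.61, 1.83 and 1.67 in HFD_IO. HFD_IO was above both other groups in that ratio.

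Type V collagen, which starts type I fibrils and sets their width, is built from Col5a1 and Col5a2, with Col5a3 in a minor form. Col5a1 was at 37.1, 60.7 and 62.0 FPKM in CD, 42.1, 35.9 and 36.1 in HFD, and 35.1, 32.8 and 47.2 in HFD_IO. Col5a2 was at 28.2, 38.2 and 40.3 FPKM in CD, 51.3, 47.1 and 42.1 in HFD, and 49.8, 43.6 and 50.8 in HFD_IO. Col5a1 ranked above Col5a2 in every CD library and below it in every library on the high fat diet. Their ratio was 1.32, 1.59 and 1.54 in CD, 0.821, 0.762 and 0.858 in HFD, and 0.705, 0.753 and 0.929 in HFD_IO. Col5a2 missed the threshold in HFD against CD (0.40, adjusted p = 0.0573) and rose in HFD_IO against CD (0.44, SE 0.15, adjusted p = 0.0478), a call that held only without CD_3 when single libraries were left out (adjusted p of 0.0515 to 0.124 without each of the others). Col5a1 had changes of -0.44 in both comparisons with CD (adjusted p of 0.122 and 0.138), and -0.68 in both without CD_1 (adjusted p of 0.0109 and 0.0126). Col5a3 was at 2.49, 2.83 and 3.41 FPKM in CD, 1.83, 0.957 and 0.895 in HFD, and 1.88, 2.95 and 3.18 in HFD_IO. All HFD libraries lay below those of both other groups. It fell in HFD against CD (-0.83, SE 0.20, adjusted p = 0.0111) and rose in HFD_IO against HFD (0.73, SE 0.20, adjusted p = 0.0253); the rise was lost without HFD_2, HFD_3, HFD_IO_2 or HFD_IO_3 (adjusted p of 0.0776 to 0.0867). The adipocyte, skeletal muscle and chondrocyte covariates ended the fall (adjusted p of 0.0583, 0.192 and 0.125). Over all genes they left 1311, 789 and 702 higher and 985, 502 and 376 lower in HFD against CD, beside 3030 and 2440 without a covariate.

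The fibrillar and fibril-associated chains that cartilage uses beside type II, Col11a2, Col9a2 and Col9a3, were scarce in CD and highest in HFD_IO. Col9a2 (chromosome 4, 121039385 to 121055322), a chain of the type IX collagen that coats cartilage fibrils, had no read in any CD library, was at 0.240, 0.985 and 0.179 FPKM in HFD, and at 2.67, 1.87 and 12.1 in HFD_IO. Against a floor of 3 reads per library, at most 0.0550 FPKM, its mean was at least 8.52-fold higher in HFD and at least 101-fold higher in HFD_IO than in CD. Each bound leans on 1 library: it was 3.81-fold without HFD_2 and 41.4-fold without HFD_IO_3. It rose in HFD_IO against HFD (1.86, SE 0.49, adjusted p = 0.0228) and against CD (2.37, adjusted p = 0.00579); the first call was lost without HFD_1 (adjusted p = 0.057) or HFD_3 (adjusted p = 0.0743). Col11a2, a chain of the type XI fibrillar collagen, was at 0.613, 1.15 and 1.07 FPKM in CD, 1.07, 1.80 and 0.802 in HFD, and 3.95, 2.97 and 12.2 in HFD_IO. The HFD_IO libraries did not overlap the others. It rose in HFD_IO against HFD (1.54, SE 0.39, adjusted p = 0.0202, and 0.0694 without HFD_3) and against CD (1.72, adjusted p = 0.0095).

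Col9a3 was at 0.254, 0.177 and 0.171 FPKM in CD, 0.371, 1.18 and 0.383 in HFD, and 1.56, 1.04 and 3.85 in HFD_IO. HFD_2 lay within HFD_IO, and Col9a3 passed only in HFD_IO against CD (1.29, SE 0.31, adjusted p = 0.012), with 0.0646 for HFD_IO against HFD. The change there passed without HFD_2 (1.09, adjusted p = 0.0494) and without HFD_IO_2 (1.13, adjusted p = 0.0393). HFD_2 was the highest HFD library for Col9a2, Col9a3 and Col11a2, and HFD_IO_3 the highest of all for each. The same libraries were highest of their groups in chondrocyte markers, at 134 and 663 FPKM. That marker list includes Col2a1 and Col10a1. Of its 10 tested genes, 6 rose in HFD against CD, 5 in HFD_IO against HFD and 9 in HFD_IO against CD. The shares of all tested genes higher were 21.8%, 14.1% and 17.5% in the same order. With the marker list as a covariate limma called no collagen chain in HFD_IO against HFD or against CD (1 higher and 5 lower at an unadjusted p under 0.05 in each). Over all 13883 genes that fit called 468 higher and 446 lower in HFD_IO against HFD, and 354 and 93 against CD. Without the covariate these were 1956 and 2013, and 2427 and 2089. The HFD_IO against CD changes of Col9a2 (-0.86), Col11a2 (-0.77) and Col9a3 (-0.66) changed sign with the covariate. Chondrocyte marker level and group cannot be told apart in these libraries. The smooth muscle covariate also ended the calls of Col9a2, Col11a2 and Col9a3 against CD (adjusted p of 0.0693, 0.0574 and 0.116). Over all genes it left 161 higher and 26 lower in HFD_IO against CD.

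Col27a1, a fibrillar chain found in cartilage, was at 3.39, 5.29 and 3.94 FPKM in CD, 3.16, 2.59 and 2.25 in HFD, and 4.07, 3.99 and 7.13 in HFD_IO. HFD lay below both other groups. It rose in HFD_IO against HFD (0.69, SE 0.21, adjusted p = 0.0371), a call lost without CD_3, HFD_2, HFD_3 or HFD_IO_3 (adjusted p of 0.0542 to 0.117), and missed the threshold in HFD against CD (-0.50, adjusted p = 0.0893, and 0.0374 without HFD_IO_3). Col9a1 and Col11a1, which complete types IX and XI, did not pass the filter: Col9a1 was at 0.204, 0.0671 and 0.141 in CD, 0.0677, 0.401 and 0.0607 in HFD, and 0.523, 0.566 and 2.43 FPKM in HFD_IO. Col11a1 was at 0.0256, 0.00890 and 0.0302 FPKM in CD, 0.0583, 0.413 and 0.0628 in HFD, and 0.458, 0.513 and 2.47 in HFD_IO. For both, every HFD_IO library was above every other library. In the fit with no filter on low values their adjusted p for HFD_IO against HFD were 0.148 and 0.184.

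**Figure D5:**
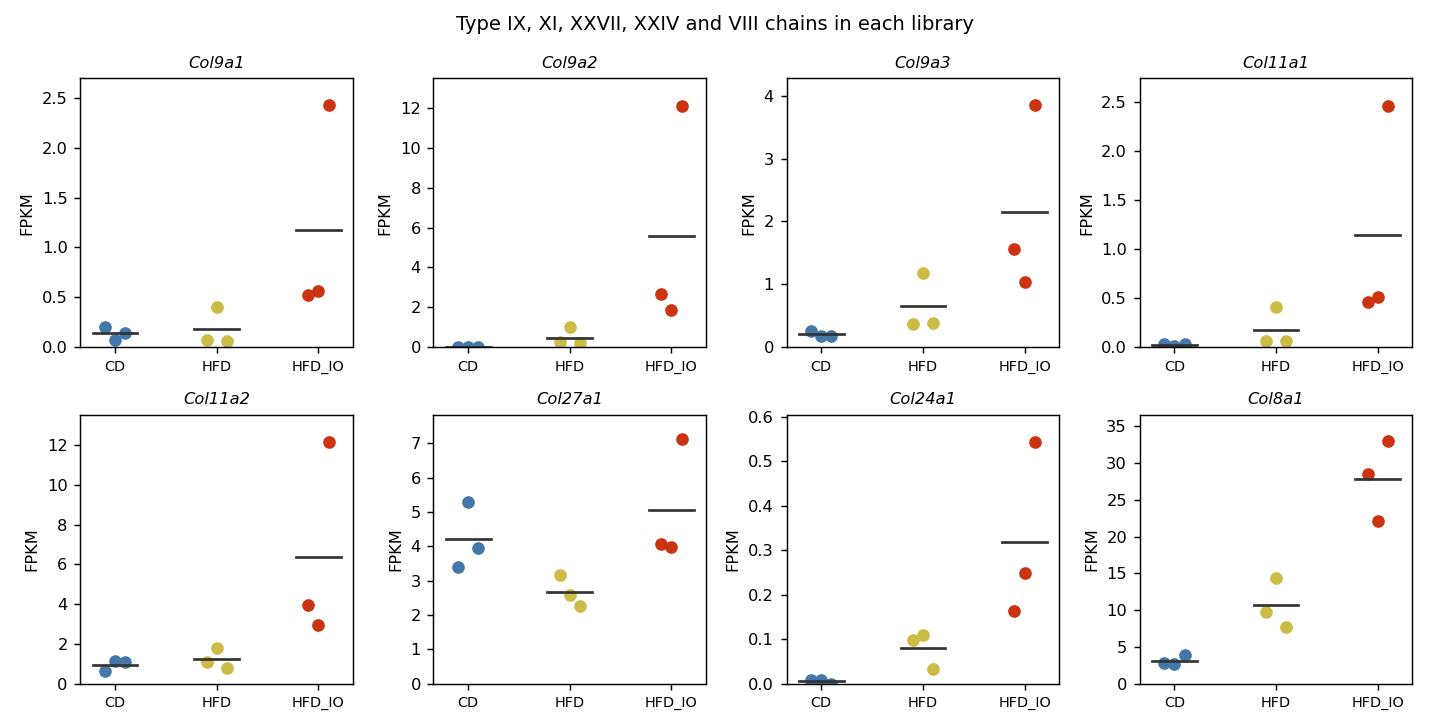
FPKM of 8 chains in each library, with the group mean as a line: types IX and XI, Col27a1, Col24a1 and, for scale, Col8a1. HFD_IO_3 is the highest point of every panel; in Col8a1 the lowest HFD_IO library (22.2 FPKM) also lies above the highest HFD library (14.4 FPKM).

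Type VI collagen forms beaded filaments between cells and fibrils, and none of its chains passed the test. Col6a1 was at 82.3, 112 and 125 FPKM in CD, 88.7, 78.8 and 110.3 in HFD, and 74.1, 69.8 and 103 in HFD_IO. Col6a2 followed it at 39.1 to 71.8, 51.4 to 69.4 and 39.7 to 57.6 FPKM. Neither passed in any comparison, with 95% intervals in HFD_IO against HFD of -0.64 to 0.29 and -0.93 to 0.16; without CD_1, Col6a2 had an adjusted p of 0.0427 in HFD_IO against CD (-0.59). Col6a3 was at 15.3, 23.9 and 25.4 FPKM in CD, 22.1, 20.7 and 23.7 in HFD, and 24.6, 28.4 and 40.9 in HFD_IO. HFD_IO lay above HFD without overlap, but the change of 0.45 had an adjusted p of 0.153, and that of 0.52 against CD 0.102. The ratio of Col6a3 to Col6a1 was 0.185, 0.214 and 0.203 in CD, 0.250, 0.263 and 0.214 in HFD, and 0.332, 0.406 and 0.396 in HFD_IO. HFD_IO lay above both other groups. HFD and CD were barely apart, at 0.2145 in HFD_3 and 0.2142 in CD_2. Col6a6 was at 0.938 to 2.59 FPKM in all and missed the threshold in both comparisons with CD (-0.44 and -0.46, adjusted p of 0.0605 and 0.0572), and passed in both without CD_1 (adjusted p of 0.0286 and 0.0284) and in the second also without HFD_IO_2 (adjusted p = 0.0461).

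Of the multiplexins, Col18a1, the parent chain of the endostatin fragment, was at 93.2, 182 and 190 FPKM in CD, 198, 196 and 209 in HFD, and 108, 78.6 and 151 in HFD_IO. Every HFD library was above every other library. The change of -0.88 in HFD_IO against HFD (SE 0.30, adjusted p = 0.0523) missed the threshold, and passed without CD_1 (adjusted p = 0.0152) or HFD_IO_3 (-1.12, adjusted p = 0.0343). Against CD, HFD_IO had a change of -0.44 (adjusted p = 0.293), and of -0.77 without CD_1 (adjusted p = 0.0359). Col15a1 was at 18.9, 27.3 and 31.6 FPKM in CD, 38.9, 31.3 and 31.6 in HFD, and 20.9, 15.6 and 26.9 in HFD_IO. It fell in HFD_IO against HFD (-0.68, SE 0.23, adjusted p = 0.0495), a call that held only without CD_1 or HFD_IO_3 when single libraries were left out (adjusted p of 0.0503 to 0.153 otherwise). Smooth muscle markers summed to 5369 to 5994 FPKM in CD, 6919 to 8078 in HFD and 2475 to 4223 in HFD_IO. Of 8 tested, 1 rose in HFD against CD, beside 21.8% of all tested genes, and 6 fell in HFD_IO against HFD, beside 14.5%. With the mean of these markers as a covariate the sign turned for Col15a1 (0.49) and Col4a6 (0.68) in HFD_IO against HFD, and limma called no gene at all. In that fit 15 chains were higher and 0 lower at an unadjusted p under 0.05. The median change was 0.88 for the chains, beside 0.02 for all tested genes. The marker sums do not overlap between the groups, so smooth muscle marker level and group cannot be told apart in these libraries. Endothelial markers fell in HFD against CD (9 of 10 tested, beside 17.6% of all genes) and rose in HFD_IO against HFD (5 of 10, beside 14.1%). Their part in the multiplexin levels was not tested.

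The fibril-associated chains of the adventitia and media included Col14a1, the most abundant, at 34.0, 49.5 and 56.9 FPKM in CD, 42.8, 32.1 and 44 in HFD, and 29.6, 40.5 and 42.7 in HFD_IO. Its groups overlapped and its changes of -0.22, -0.08 and -0.29 did not pass. Col12a1, which binds type I fibrils in tissue under tension, was at 1.21, 1.34 and 1.84 FPKM in CD, 1.43, 1.40 and 1.89 in HFD, and 2.40, 2.26 and 3.46 in HFD_IO. HFD_IO lay above both other groups. Col12a1 rose in HFD_IO against HFD (0.52, SE 0.16, adjusted p = 0.0394) and against CD (0.58, SE 0.16, adjusted p = 0.0212). The first call held only without CD_1 or CD_3 (adjusted p of 0.0512 to 0.120 without each other library), and the second was lost without CD_1, CD_2 or HFD_IO_3 (0.052 to 0.0693). Col16a1 was at 4.88 to 9.89 FPKM in CD, 6.31 to 10.2 in HFD and 5.00 to 10.1 in HFD_IO and did not pass.

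Col20a1, another fibril-associated chain, and Col23a1, a transmembrane chain, fell in HFD. Col20a1 was at 1.42, 1.86 and 2.01 FPKM in CD, 0.656, 0.430 and 0.383 in HFD, and 0.778, 0.602 and 0.936 in HFD_IO. CD lay above both other groups. It fell by 0.89 in HFD (SE 0.15, adjusted p = 0.00247) and by 0.64 in HFD_IO (SE 0.15, adjusted p = 0.00954) against CD, and both calls held without any 1 library. The skeletal muscle covariate ended the first (adjusted p = 0.0567), and the chondrocyte and smooth muscle covariates ended the second (adjusted p of 0.411 and 0.632). As given for Col4a4, these covariates cut the calls over all genes as well. Col23a1 was at 5.75, 8.11 and 8.85 FPKM in CD, 5.12, 3.51 and 2.57 in HFD, and 5.05, 4.56 and 4.87 in HFD_IO. CD was again above the rest. Its change was -0.87 in HFD against CD (SE 0.20, adjusted p = 0.00963), and -0.54 in HFD_IO against CD (adjusted p = 0.0686), which passed without CD_1 (-0.70, adjusted p = 0.0269), HFD_1 (adjusted p = 0.0335) or HFD_3 (adjusted p = 0.0399). The call in HFD was lost with the adipocyte (-0.61, adjusted p = 0.0946), skeletal muscle (-0.55, adjusted p = 0.183) and chondrocyte (-0.74, adjusted p = 0.17) covariates. As given for Col5a3, these also cut the calls over all genes in HFD against CD.

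Chains that did not pass the filter were described without weight on their tests. Col26a1 had 0 to 2 reads per library, Col17a1 0 to 6 and Col13a1 1 to 11. Col24a1, a fibrillar chain, was at 0 to 0.00744 FPKM in CD, 0.0323 to 0.110 in HFD and 0.163 to 0.543 in HFD_IO, and Col22a1 at 0 to 0.125, 0.0715 to 0.181 and 0.212 to 0.406. For both, HFD_IO lay above HFD and CD. Col7a1, the chain of the anchoring fibrils of skin, was at 0.165 to 0.304 FPKM in CD, 0.0538 to 0.0611 in HFD and 0.0558 to 0.160 in HFD_IO, and CD lay above the rest. In the fit with no filter on low values, Col24a1 (adjusted p = 0.0316) and Col22a1 (adjusted p = 0.0351) passed in HFD_IO against CD and Col7a1 (adjusted p = 0.0226) in HFD against CD. Col28a1 was at 0.886 FPKM in HFD_1 and at 0.0221 to 0.187 in the other libraries.

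Genes that make, bind and break down collagen were read from lists beside the chains. Of 29 tested genes of synthesis and crosslinking, 7 rose and 4 fell in HFD against CD, 3 rose and 6 fell in HFD_IO against HFD, and 5 rose and 6 fell in HFD_IO against CD. Over all tested genes the shares higher and lower were 21.8% and 17.6%, 14.1% and 14.5%, and 17.5% and 15% in the same order. The counts of 29 are near that background in every comparison. Fibroblast markers moved beside this list: they summed to 1211 to 1303 FPKM in CD, 1504 to 1963 in HFD and 1089 to 1235 in HFD_IO, none was at 0 throughout, and of 10 tested 2 rose and 1 fell in HFD against CD, 0 and 6 in HFD_IO against HFD (1 higher and 6 lower at an unadjusted p under 0.05 in limma), and 2 and 6 in HFD_IO against CD. Their part in the levels of this list was not tested. Creb3l1, a transcription factor of collagen secretion, was at 30.6, 40.6 and 41.9 FPKM in CD and 15, 15.5 and 18 in HFD (-1.16, SE 0.14, adjusted p = 0.000897). Lox, which crosslinks collagen and elastin, was at 62.4, 68.3 and 67.4 FPKM in CD and 30.7, 41.7 and 36.8 in HFD (-0.85, adjusted p = 0.00157). Both were lower in all HFD libraries than in any CD library. Pcolce2, an enhancer of procollagen processing, went from 37.0, 31.5 and 37.2 FPKM in HFD to 15.4, 16.7 and 21.9 in HFD_IO (-0.94, SE 0.13, adjusted p = 0.0023), and Plod2, a lysyl hydroxylase, fell by 0.57 (adjusted p = 0.0071). P4ha1, a prolyl hydroxylase, fell by 0.80 (adjusted p = 0.0328), a call that was lost without any of the HFD_2, HFD_3, HFD_IO_1, HFD_IO_2 and HFD_IO_3 libraries (adjusted p of 0.0588 to 0.108). Colgalt1, which adds galactose to collagen, rose by 0.62 in HFD and by 0.76 in HFD_IO against CD (adjusted p of 0.0076 and 0.00281). P4ha2 fell (-0.98) and P4ha3 rose (0.82) in HFD_IO against CD, although both are prolyl hydroxylase subunits (adjusted p of 0.00048 and 0.00489). P3h4, a partner of lysyl hydroxylation, rose in HFD against CD (0.57, adjusted p = 0.0152) and fell in HFD_IO against HFD (-0.59, adjusted p = 0.0189, and 0.064 to 0.066 without HFD_3, HFD_IO_1 or HFD_IO_2); with the smooth muscle covariate the latter change was 0.13 (adjusted p = 0.817).

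Of 8 tested genes of collagen breakdown, 2 rose in HFD against CD, 5 in HFD_IO against HFD and 7 in HFD_IO against CD, beside 21.8%, 14.1% and 17.5% of all tested genes. The 2 of 8 in HFD are near that background. In this list limma called none lower in any comparison, with 0 lower at an unadjusted p under 0.05 as well. Ctsk, cathepsin K, which cuts the triple helix in lysosomes, was at 20.3, 21.4 and 22 FPKM in CD, 92.0, 85.6 and 81.4 in HFD, and 294, 235 and 229.7 in HFD_IO. Its changes were 1.97 and 1.53 (SE 0.12 in each), with adjusted p of 5.92e-05 and 0.000316 in HFD against CD and HFD_IO against HFD. Mmp14, a membrane-bound collagenase, was at 24.9, 21.1 and 14.8 FPKM in HFD and 51.8, 66.4 and 56.2 in HFD_IO (1.5, SE 0.19, adjusted p = 0.00152). Mmp8, the neutrophil collagenase, rose by 1.03 (adjusted p = 0.0083) and the collagenase Mmp13 by 3.40 in HFD_IO against HFD. Pepd, which splits the proline dipeptides left from collagen, rose in HFD against CD (0.94, adjusted p = 0.00213). Macrophage markers summed to 580.0 to 655 FPKM in CD, 2806 to 4715 in HFD and 4475 to 7705 in HFD_IO. Of 10 tested, 8 rose in HFD against CD, beside 21.8% of all tested genes, and limma had 1 lower at an unadjusted p under 0.05. In HFD_IO 9 rose against HFD and 9 against CD, beside 14.1% and 17.5%. The part of these markers in the levels of the breakdown genes was not tested.

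Among 8 tested collagen receptors, 2 rose and 2 fell in HFD against CD, 3 rose and 1 fell in HFD_IO against HFD, and 2 rose and 1 fell in HFD_IO against CD. The shares of all tested genes given for the synthesis list apply here too. All of these counts but the 3 higher in HFD_IO against HFD are near them. Lair1, an inhibitory collagen receptor of immune cells, rose in all 3, by 0.95, 1.72 and 2.67 (SE 0.19). Ddr2, a receptor kinase for fibrillar collagen, was at 46.3, 62.7 and 62.9 FPKM in CD and 31.0, 27.7 and 35.7 in HFD and fell by 0.84 (adjusted p = 0.00319). Itga10, an integrin subunit of chondrocytes, fell in HFD (-1.12, adjusted p = 0.0068) and rose in HFD_IO against HFD (0.95, adjusted p = 0.018, and 0.0501 without HFD_2). Itga11, an integrin subunit of fibroblasts, rose in HFD_IO against HFD (0.98, adjusted p = 0.0239) and against CD (1.01, adjusted p = 0.0171); the first call was lost without HFD_1, HFD_2, HFD_IO_2 or HFD_IO_3 (adjusted p of 0.0554 to 0.0756), and the second without HFD_IO_2 or HFD_IO_3 (0.0649 and 0.0597). Itgb1, the partner of these integrin subunits, rose in HFD against CD (0.72, adjusted p = 0.0048) and fell in HFD_IO against HFD (-0.53, adjusted p = 0.0235, and 0.0577 to 0.0785 without HFD_2, HFD_3, HFD_IO_1 or HFD_IO_2), and the latter was 0.041 with the smooth muscle covariate (adjusted p = 0.949). Of 13 tested partners of type IV collagen in the basement membrane, limma called none higher (0, 0 and 1 at an unadjusted p under 0.05); 2 fell in HFD against CD, 1 in HFD_IO against HFD and 4 in HFD_IO against CD, beside 17.6%, 14.5% and 15% of all tested genes. The 2 and the 1 of 13 are not above that background. The gene called in HFD_IO against HFD was Lama4, a laminin chain of vessels, at 11.3, 11.1 and 14.9 FPKM in HFD and 7.23, 5.70 and 7.83 in HFD_IO (-0.76, SE 0.18, adjusted p = 0.0137). With the smooth muscle covariate the change of Lama4 there was 0.24 (adjusted p = 0.668), and Lama5 (0.10) and Lama2 (0.12) turned likewise in HFD_IO against CD. Smooth muscle marker level and group cannot be told apart in these libraries. Lama5 (-0.82 and -0.71, adjusted p of 0.0179 and 0.0351) and Lama2 (-0.58 and -0.59, adjusted p of 0.0375 and 0.0408), other laminin chains, fell in HFD and in HFD_IO against CD, and Agrn, a basement membrane proteoglycan, fell in HFD_IO against CD (-0.67, adjusted p = 0.0187). The Lama5, Lama2 and Agrn calls against CD were each lost without any of 3 to 5 single libraries, CD_2 and CD_3 among them every time. In HFD the others were HFD_2 and HFD_3 (Lama5) or HFD_1 and HFD_2 (Lama2). In HFD_IO they were HFD_IO_2 (all), HFD_IO_1 (Lama5 and Lama2), HFD_2 (Lama5) and HFD_1 (Lama2). The adjusted p of these limma fits was 0.0507 to 0.132. Lama4 also fell in HFD_IO against CD (-0.88, SE 0.18, adjusted p = 0.0048), a call that held without any 1 library. It held in 24 of 26 alternatives, with an adjusted p of up to 0.899.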

How the data were processed

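Messenger RNA of 9 aortas was sequenced; per the labels' protocols, RNA came from a Qiagen column kit and libraries from an NEBNext kit, with no strand stated. Values are FPKM deposited by the authors, with the length of each gene in bases in the same table. HISAT2 and hg38, a human build, are named per the submitters' processing notes; the counting tool and the annotation were not given in the sources used here, and the gene identifiers are mouse: 54409 of 54532 are in GENCODE M21, 98.3% of them with the same coordinates on GRCm38, all 42 collagen chains included. FPKM times length gave whole reads within 0.05 for 100% of values, and the deposited scaling is proportional to median-of-ratios size factors of those reads. The numbers in the column names are absent from the labels, which therefore tie a column to a group but to no single aorta. Within groups no library repeated another. The chi-square per degree of freedom was 6.41 between CD_2 and CD_3 and 26.2 to 56.4 between the other pairs. Pairs across groups were not compared.

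limma 3.58.1 in R 4.3.3 was fitted to log2(FPKM + 1) of all 9 libraries with 3 group means and a mean-variance trend. The fit took genes with at least 1 FPKM in 3 libraries. The calculation was tested on simulated data with a single dispersion of 0.02 and no trend on length. That test checks the calculation, not how firm the calls are in these libraries. Shares of the summed level, shares of reads and chain ratios have no test. The collagen chains, their families and the companion and marker lists were chosen with earlier results of these data known. Chains past the threshold in a comparison or with a mean of at least 10 FPKM are described with values, and of each companion list up to 4 members with the largest change among those past the threshold. Promoter sequences are from RefSeq (GRCm38.p6), trimmed of annotated exons. Rows on the strand opposite a chain held at most 3.3% of its reads, apart from Col4a1 and Col4a2 themselves. Alternatives were another pseudocount, filters, scalings, variance models, gene sets, covariates, library weights and the omission of single libraries. A voom fit of the recovered reads, the removal of trends on length and GC content, the chondrocyte and smooth muscle covariates and the fold bounds without single libraries were chosen after seeing the data.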

Additional observations from a re-analysis of the deposited data

How the results depend on the processing

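Calls of Col8a1 in every comparison, and of Col4a4, Col4a3 and Col20a1 against CD, held in all alternatives but 1 or 2 of the 25 or 26 run for each, all of them marker covariates. Those of Col9a2, Col11a2 and Col9a3 in HFD_IO against CD held in 23 of 25, and of Col23a1 and Col5a3 in HFD against CD in 23 of 26 and 22 of 25. The calls held least often were Col5a2 in HFD_IO against CD (8 of 26) and, in HFD_IO against HFD, Col4a6 (10 of 26), Col12a1 (10 of 25), Col15a1 (11 of 26) and Col27a1 (12 of 25). Where no cause is given, the cause was not tested. Leaving out 1 library gave, higher and lower, 1 and 5 to 9 chains in HFD against CD, 1 to 6 and 0 to 4 in HFD_IO against HFD, and 4 to 6 and 3 to 13 in HFD_IO against CD. Counts that moved by more than 1.5 times follow by setting. Smaller moves are not listed. Calls over all genes moved too. With array weights, 4266 were higher and 3521 lower in HFD against CD, and 3353 and 3409 in HFD_IO against CD. Those for TPM and the marker covariates are given above. In HFD against CD, higher calls were 2 with a pseudocount of 0.1, with the length trend removed, with array weights or with the adipocyte covariate, 4 with length and GC trends removed and 0 with the chondrocyte covariate; lower calls were 2 above 5 FPKM, where fewer chains are tested, 11 in TPM, 8 after quantile normalization, 13 with array weights, 2 with the adipocyte, 0 with the skeletal muscle, 3 with the chondrocyte and 9 with the smooth muscle covariate, and 9 without both CD_1 and HFD_3. In HFD_IO against HFD, higher calls were 1 without a filter, above 5 FPKM, with the adipocyte or with the skeletal muscle covariate, 2 without both CD_1 and HFD_3, and 0 with the chondrocyte or smooth muscle covariate; lower calls were 0 without a filter, in TPM, after quantile normalization, without the mean-variance trend and with any of the 4 covariates, 4 with array weights and 5 with both trends removed. In HFD_IO against CD, higher calls were 2 above 5 FPKM, 0 with the chondrocyte and 1 with the smooth muscle covariate; lower calls were 2 above 5 FPKM, 11 in TPM, 7 after quantile normalization or with protein-coding genes alone, 17 with array weights, 13 without both CD_1 and HFD_3, 10 with both trends removed, and 0 with the chondrocyte or smooth muscle covariate. The chondrocyte covariate reversed Col9a2 (-0.86), Col11a2 (-0.77), Col9a3 (-0.66) and Col12a1 (-0.032) in HFD_IO against CD. The smooth muscle covariate reversed Col4a6 (0.68), Col15a1 (0.49), Lama4 (0.24), P3h4 (0.13) and Itgb1 (0.041) in HFD_IO against HFD and Col4a6 (0.37), Lama2 (0.12) and Lama5 (0.10) in HFD_IO against CD. Both marker lists separate the groups, so the part of the markers in these changes cannot be told apart from that of the group. Collagen chains took a mean of 1.26%, 1.07% and 0.983% of reads in CD, HFD and HFD_IO, and 0.491%, 0.354% and 0.344% of summed FPKM, which divides by gene length. A count model on the recovered reads with edgeR was not run, since the deposited table holds FPKM. No paired analysis was possible because the labels number the aortas 1 to 9 and no number is shared between groups. At these depths, changes of chains under 1 FPKM are limited by few reads, 3 reads being at most 0.0550 FPKM for Col9a2.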
